A study of Mus musculus with 69 samples.

Results

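Microexons are exons so short that they encode only a few residues. In neurons many of them are spliced in by SRRM4, an SR-related protein that acts with Srsf11 and Rnps1 upstream of the exon, while PTB proteins hold many of them out of the transcript in other cells. Included microexons often keep the reading frame and change the surface of proteins at synapses, on vesicles and along the cytoskeleton. In the exon table of ventral striatum RNA, a microexon was taken as a row of 3 to 27 nt that was neither the first nor the last exon of its gene by position and had no other row of that gene within 5 bp. Of 253821 rows, 1603 met the rule, in 1172 genes. The rule itself uses position and length and no measured value, though it was set with earlier results of these data known.

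The mice were of the HDID1 line (17 females and 18 males), selected for the blood ethanol reached in a drinking test held in the dark phase, and of HSNpt, a genetically heterogeneous control stock (17 females and 17 males). All 69 mice, controls included, had drunk 20% ethanol in a 4-day test that began 3 h into the dark phase, for 2 h on the first days and 4 h on the last, and their tissue was taken 3 weeks later. A single selected line was set against a single stock, so an effect of selection and any other difference between these breeding populations cannot be told apart. Poly-A selected RNA from 1 dissected piece per mouse was sequenced in bulk, where fewer cells of a type and less RNA per cell cannot be told apart.

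Libraries held 14077983 to 35257422 counts (median 17646316). All 14 spiny neuron markers were found; their summed level was 1163 to 13110 CPM (counts scaled to library size) in HDID1 and 3217 to 16550 CPM in HSNpt, and none stayed under 1 CPM. The 9 hypothalamic markers summed to 6.12 to 1525 CPM in HDID1 and 4.08 to 436 CPM in HSNpt, with Agrp under 1 CPM in every library. Their medians were 114 CPM in HDID1 and 39.4 CPM in HSNpt, and those of 8 choroid plexus markers 1655 and 790 CPM. By coverage balance (the median over genes of the log2 ratio of counts on the 5′ row to those on the 3′ row) or by spiny neuron markers, 7 libraries stood apart, 5 of HDID1 and 2 of HSNpt. Results that rest on them are given with and without them.

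The sequences that carry the results below are those of microexons found at 2 separate levels across mice, of those that differed between lines, and of a few neuronal microexons shared by related genes. They are from GENCODE M21 transcripts on GRCm38 (mm10), each with its position and strand; capitals mark the microexon and lower case the 15 bases spliced to it on each side. The first set fell into separate bands from mouse to mouse.
Adcy5, chr16:35278495-35278517, plus strand: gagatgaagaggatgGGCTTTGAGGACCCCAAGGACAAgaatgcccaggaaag
Spock2, chr10:60121232-60121240, plus strand: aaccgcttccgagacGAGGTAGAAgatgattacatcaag
Spock3, chr8:63113434-63113442, plus strand: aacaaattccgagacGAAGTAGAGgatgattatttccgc
Rph3a, chr5:120980130-120980141, minus strand: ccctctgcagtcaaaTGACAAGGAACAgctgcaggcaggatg
Anks1b, chr10:90940564-90940575, plus strand: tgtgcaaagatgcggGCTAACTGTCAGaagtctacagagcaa
Acyp2, chr11:30633686-30633702, minus strand: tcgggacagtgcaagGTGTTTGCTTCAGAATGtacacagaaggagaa
Sptan1, chr2:30014158-30014172, plus strand: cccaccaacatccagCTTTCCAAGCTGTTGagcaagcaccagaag
Myo5a, chr9:75187522-75187530, plus strand: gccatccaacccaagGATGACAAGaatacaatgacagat

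The second set passed a test of the difference between lines.
Gramd1b, chr9:40327418-40327438, minus strand: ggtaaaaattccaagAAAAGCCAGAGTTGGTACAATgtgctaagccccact
Stx16, chr2:174084646-174084657, plus strand: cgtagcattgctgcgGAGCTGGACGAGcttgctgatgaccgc
Dpy19l1, chr9:24485705-24485729, minus strand: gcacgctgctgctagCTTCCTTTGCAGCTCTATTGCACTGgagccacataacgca
Ap1s2, chrX:163931363-163931371, plus strand: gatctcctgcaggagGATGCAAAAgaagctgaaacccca
Atp2a2, chr5:122500931-122500948, minus strand: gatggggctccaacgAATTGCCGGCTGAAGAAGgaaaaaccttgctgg
Tac1, chr6:7557720-7557743, plus strand: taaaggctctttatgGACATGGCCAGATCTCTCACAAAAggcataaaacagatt

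The third set shows known neuronal microexons, with paralogs side by side where the table held them.
Mef2a, chr7:67244521-67244544, minus strand: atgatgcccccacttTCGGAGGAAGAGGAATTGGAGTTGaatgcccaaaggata
Mef2c, chr13:83654598-83654621, plus strand: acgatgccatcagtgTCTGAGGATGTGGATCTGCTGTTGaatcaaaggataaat
Mef2d, chr3:88161781-88161801, plus strand: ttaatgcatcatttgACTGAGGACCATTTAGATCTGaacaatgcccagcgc
Eif4g1, chr16:20674786-20674806, plus strand: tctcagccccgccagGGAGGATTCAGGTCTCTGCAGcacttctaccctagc
Eif4g3, chr4:138095909-138095929, plus strand: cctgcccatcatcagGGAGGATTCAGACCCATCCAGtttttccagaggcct
Src, chr2:157458843-157458860, plus strand: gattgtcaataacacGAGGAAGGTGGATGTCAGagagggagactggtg
Kdm1a, chr4:136563438-136563449, minus strand: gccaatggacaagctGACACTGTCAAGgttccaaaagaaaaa
Clasp2, chr9:113887045-113887047, plus strand: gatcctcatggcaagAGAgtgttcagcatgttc

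Paralogous microexons differed in how much sequence they shared. Those of Spock2 and Spock3, which encode secreted proteoglycans of the testican family, were identical at 7 of 9 bases and at 22 of the 30 flanking bases. In the translation initiation factors Eif4g1 and Eif4g3, 16 of 21 bases matched inside the microexon against 11 of 30 outside it. Between the transcription factors Mef2a and Mef2c, 17 of 24 bases matched inside and 15 of 30 outside. The microtubule-binding genes Clasp1 and Clasp2 hold 2 microexons of 24 nt each; over the 4 pairings 8 to 17 of 24 bases matched inside, and the closest pairing matched at 22 of 30 outside.

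The reading frame set these exons apart in the annotation. Of the 1603 microexons, 1557 (97.1%) matched a GENCODE exon exactly. They included 1221 in coding sequence, 50 in UTRs, 96 in noncoding transcripts and 190 that matched only terminal exons, which left 46 with no match. Of the coding ones, 840 (68.8%) had a length divisible by 3, against 40.7% of the 128133 coding internal exons of 28 to 300 nt. At least 1 annotated transcript skipped 581 of the coding microexons (47.6%), against 9.46% of the longer coding exons. Divisibility by 3 stood at 76.1% for the skipped microexons and 62.2% for those never skipped. The most frequent length was 27 nt (294 microexons), 25 were of 3 nt, and just outside the rule lay 126 internal rows of 28 nt.

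By the role of the host, drawn from lists of genes chosen with earlier results of these data known, adhesion and guidance genes held 43 microexons, of which 40 (93.0%) were divisible by 3. Vesicle traffic genes held 35, of which 32 (91.4%) were divisible by 3, and cytoskeletal genes held 45, of which 39 (86.7%) were. Channels and receptors had 27 of 31, transcription and chromatin genes 9 of 13, signalling genes 13 of 19, and translation and RNA genes 4 of 8. The lists hold genes known for neuronal microexons, so these shares are a description of the lists.

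Many microexons had few counts. No library had a count on 291 of them, 766 averaged at least 1 count, 433 at least 10 and 54 at least 100. Of the 90 microexons whose neighbouring rows averaged at least 200 counts, 15 averaged under 1 count.

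The level of a microexon is given as its count over the mean count of the nearest row on each side, a ratio that is not adjusted for length. Among exons whose neighbours averaged at least 50 counts, the 358 microexons had a median ratio of 0.287 (quartiles 0.0273 and 0.551), and the 40398 internal exons of 28 to 300 nt had a median of 0.824. Coding microexons that no annotated transcript skips had a median of 0.533 (112 exons), and those that some transcript skips a median of 0.245 (177 exons). A ratio under 0.1 was found for 35.2% of microexons and for 8.84% of the longer exons. At the border of the rule, the median was 0.230 over 55 exons of 27 nt and 0.130 over 25 exons of 28 nt.

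**Figure D1:**
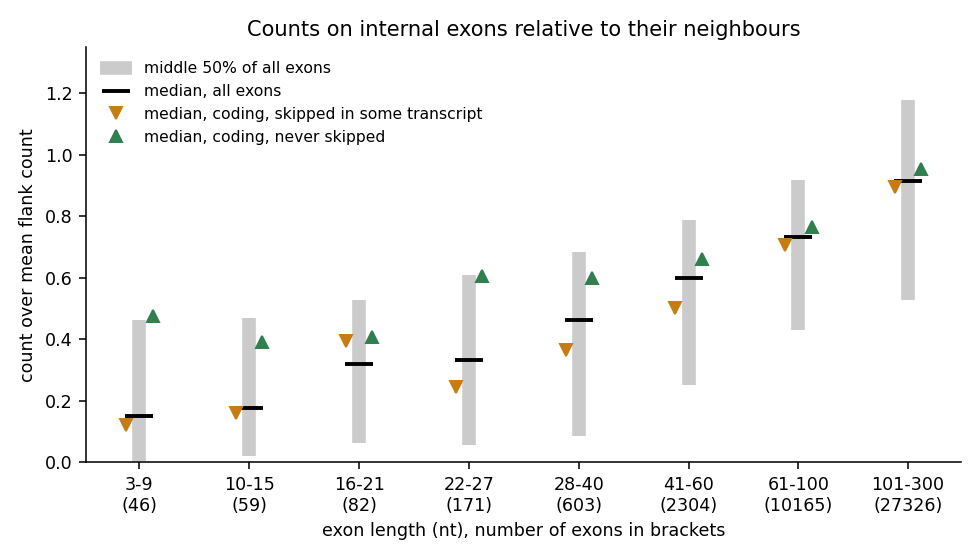
Count of an internal exon over the mean count of its nearest rows (y axis, ratio) by exon length in nt (x axis), over exons whose neighbours average at least 50 counts. The black mark is the median, the grey bar runs between the quartiles, and the triangles are medians of coding exons that some transcript skips (orange) or none skips (green); the medians run from 0.151 at 3 to 9 nt to 0.914 in the longest class, up to 300 nt.

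Among microexons with neighbours of at least 200 counts, the highest ratios belonged to Tac1 (1.31), the precursor of substance P, to Dmtn (1.29), an actin-bundling protein, and to Psap (1.27), the precursor of the saposins. Pcbp2 (0.920), a poly(C)-binding protein, 2010107E04Rik (0.920) and the selenoprotein Sepw1 (0.894) followed. The 9 nt microexon of Psap, skipped in 4 of 5 annotated transcripts, ran from 1.16 through a median of 1.26 to 1.46 in HDID1 and from 1.12 through 1.28 to 1.4 in HSNpt. The ranges of both lines overlapped almost wholly, and no mouse lay near 0. The 6 lowest were in Kif5c, Gm17305, Atp5b, 6330403A02Rik, Nptn and Gm26883, each with a mean under 0.5 counts beside neighbours of 233 to 4168 counts.

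Well-known neuronal microexons had ratios whose medians lay close together in the lines. Coding microexons of 16 to 21 nt that no transcript skips had a median ratio of 0.408, so partial inclusion cannot be read from these ratios. The 18 nt exon of Src, which makes the neuronal form of this tyrosine kinase, had ratios from 0.277 through a median of 0.436 to 0.580 in HDID1 and from 0.167 through 0.430 to 0.599 in HSNpt. For the 12 nt exon of Kdm1a, a histone demethylase with a neuronal form, the ratio ran from 0.149 through 0.222 to 0.418 in HDID1 and from 0.148 through 0.224 to 0.346 in HSNpt. The 12 nt exon of Ptprs, a receptor phosphatase of axons and synapses, spanned 0.445 to 0.625 in HDID1 (median 0.499) and 0.418 to 0.535 in HSNpt (median 0.494). The lines overlapped in all 3, and for Ptprs the highest HDID1 mouse lay above every HSNpt mouse.

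The dynactin subunit Dctn1 held 2 microexons of 21 nt, with ratios of means of 0.454 at chr6:83183936-83183956 and 0.363 at chr6:83187764-83187784. Mef2c (24 nt), Mef2d (21 nt), Eif4g1 (21 nt) and Eif4g3 (21 nt) lay at 0.578, 0.439, 0.443 and 0.414. The 15 nt exon of Abi1, a WAVE complex subunit, was at 1.08, and the 12 nt exon of Agrn, the organiser of the neuromuscular synapse, at 0.504. The endocytic scaffold Itsn1 (15 nt) lay lower, at 0.144. In the adhesion molecule L1cam the 15 nt exon was at 0.493 and the 12 nt exon at 0.128. In Ptprd, a receptor phosphatase of synapse formation, 5 microexons were listed. Those of 15 and 12 nt stood at 0.176 and 0.231. The 18 nt one stood at 0.473 and the 9 nt one at 1.44, beside neighbours that averaged 23.8 and 11.5 counts. An annotated transcript splices the 9 nt and the 18 nt exon to each other. The 27 nt row of Apbb1 and that of Kif1b averaged 0.145 and 1 counts beside neighbours of 716 and 194, and the 24 nt exon of Cpeb4 averaged 5 counts. The 27 nt exons of Robo1 and Ptprd averaged 5.73 and 4.57 counts, and the other microexons of Abi1 and Eif4g3 under 0.5 counts.

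**Figure D2:**
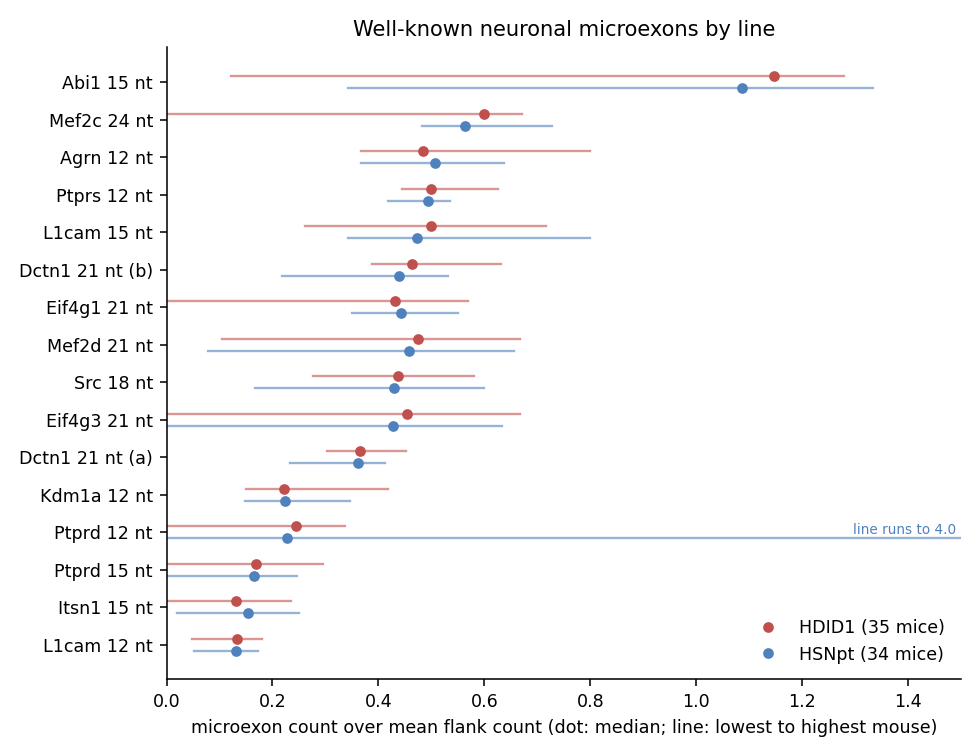
Ratio of microexon count to mean count of the nearest rows (x axis) for neuronal microexons that average at least 10 counts beside neighbours of at least 50; dots are medians and lines run from the lowest to the highest mouse, for 35 HDID1 and 34 HSNpt mice. The medians of both lines lie close together for each microexon; the highest HSNpt mouse for the 12 nt exon of Ptprd, at 4.0, lies beyond the axis.

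By their ratios, some microexons did not vary smoothly from mouse to mouse but fell into a lower and a higher level. The rule for these was made after the values were seen: exon and neighbours average at least 20 counts, and the sorted log2 ratios (pseudocount 0.5) of the 69 mice leave a gap of at least 1 log2 unit with at least 5 mice on each side. Of 272 microexons that could be measured, 18 (6.62%) had such a gap. Of the internal exons of 28 to 300 nt, 122 of 58101 had one, which is 0.21%. By length the share was 17.2% at 3 to 9 nt (5 of 29), 10.3% at 10 to 15 nt (4 of 39), 4.55% at 16 to 21 nt (3 of 66) and 4.35% at 22 to 27 nt (6 of 138). Just outside the rule it was 5.56% at 28 nt (1 of 18), and it was 2.32% at 28 to 40 nt and 0.0715% in the longest class, up to 300 nt. As the list was chosen by its values, no test is given. Only counts per exon were used, so the part of how reads were aligned to exons this short was not tested.

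**Figure D3:**
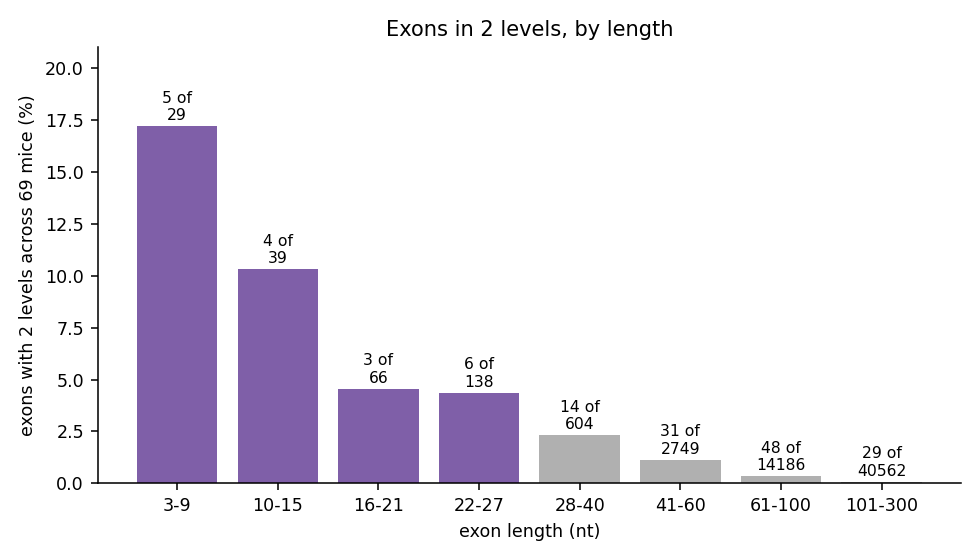
Percent of internal exons (y axis) that fell into 2 levels across 69 mice, by exon length in nt (x axis); numbers above the bars are exons with 2 levels of exons measured. Purple bars are microexons; the bars run from 17.2% at 3 to 9 nt down to 0.0715% in the longest class, up to 300 nt.

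The widest gap was in Rps24, a protein of the small ribosomal subunit. Its 3 nt row at chr14:24495430-24495432 had a ratio of 0.00299 to 0.0173 in 52 mice and of 0.650 to 0.884 in the other 17. No mouse lay between those ranges, although the neighbouring rows averaged at least 462 counts in every mouse. The row matched only a terminal exon in the annotation, and as ribosomal protein genes have near-identical pseudogenes its reads are uncertain. The low level was found in 28 of 35 HDID1 and 24 of 34 HSNpt mice.

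In Adcy5, the adenylate cyclase that carries most of the dopamine-regulated cAMP signal of the striatum, the 23 nt coding exon had 0 to 36 counts in 15 mice, a ratio of at most 0.0431. In the other 54 mice it had 40 to 760 counts, and the ratio lay between 0.478 and 0.655. The mice at the low level were 10 of HDID1 and 5 of HSNpt, and they included 5 of the 7 libraries that stood apart. The gap was 3.45 log2 units with and without those libraries. Only 1 annotated transcript spans this exon, and that transcript does not skip it. The length of the exon is not divisible by 3. Over all 69 mice its log2 ratio had a correlation of 0.452 with the coverage balance, the largest such value among the 18, and the part of coverage balance in this result was not tested.

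Synaptic genes stood among the others. Rph3a, a Rab3 effector on synaptic vesicles, had a ratio of 0.0295 to 0.0879 for its 12 nt exon in 20 mice and of 0.463 to 0.812 in 49. For the 12 nt exon of Anks1b, a scaffold of the postsynaptic density, 30 mice lay at 0.0166 to 0.109 and 39 at 0.465 to 1.32. The 15 nt exon of Sptan1, the alpha chain of brain spectrin, was at 0.0379 to 0.0701 in 13 mice and at 0.224 to 0.670 in 56. In each of these 3 the bands were far apart and both lines were in both bands: 9 HDID1 and 11 HSNpt mice were low for Rph3a, 16 and 14 for Anks1b, and 6 and 7 for Sptan1.

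Both testicans were among the 18. The 9 nt exon of Spock2 was at 0.505 or less in 28 mice and at 1.5 to 7.33 in 41. The upper mice themselves fell into a pair of bands in the plot of ratios by mouse. Its neighbours averaged 88.3 counts, down to 4, beside 182 on the exon. In HSNpt the median ratio was 4.07 in females and 1.66 in males. The median shares of gene counts were 1.55% and 1.79% in the same order. The part of the neighbouring rows in the upper bands was not tested. Of the mice below the gap, 18 were HDID1 and 10 HSNpt. The line difference of Spock2 was -0.60 (SE 0.18, adjusted p = 0.104) by edgeR, -0.65 (SE 0.17, adjusted p = 0.0295) by edgeR without the libraries that stood apart, and -1.17 (SE 0.22, adjusted p = 0.000166) by voom. For Spock3 the gap lay between 0.307 and 0.857, with 13 HDID1 and 10 HSNpt mice below it.

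The remaining 11 were in the acylphosphatase Acyp2 (17 nt), the RNA-binding Hnrnpc (26 nt, in a UTR), the calcium channel subunit Cacna2d3 (18 nt), the motor Myo5a (9 nt), the dysbindin gene Dtnbp1 (23 nt), the ciliary gene Ahi1 (27 nt), the endocytic Amph (24 nt), the translation factor Denr (20 nt), the BRCA1-A complex member Babam1 (25 nt) and 2 genes whose names the table gives as dates. For Myo5a, 18 HDID1 and 14 HSNpt mice were at 0.0291 to 0.120 and the rest at 0.330 to 0.492. For Acyp2, 5 mice of each line were at 0.0412 to 0.129 and the rest at 0.424 to 1.73. Across all 18, the percentage of HDID1 mice below the gap minus that of HSNpt mice ran from -13.19 to 22.02, and was above 0 for 11 and below 0 for 7. Of the 18, 10 were divisible by 3, and 10 were skipped in an annotated transcript; over the 272 measured these shares were 70.2% and 48.5%.

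**Figure D4:**
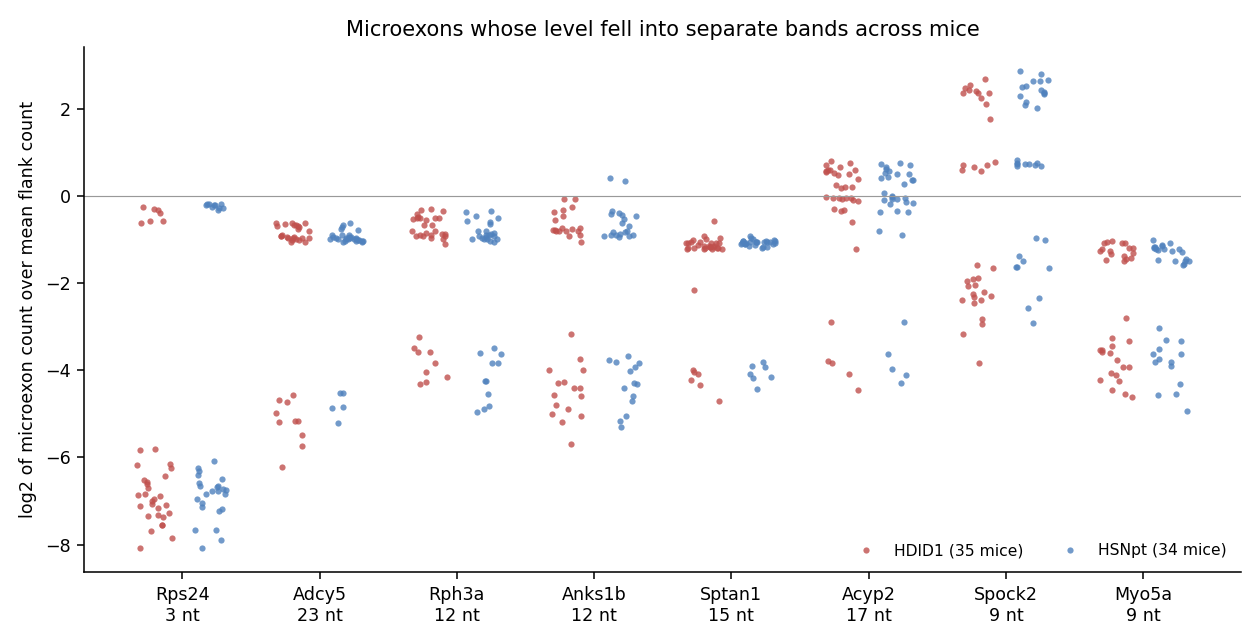
Log2 of microexon count over mean count of the nearest rows (y axis, pseudocount 0.5) for 8 of the 18 microexons with 2 levels; each point is 1 mouse, red for HDID1 (35) and blue for HSNpt (34). Mice of both lines lie in the upper and the lower band of every microexon; for Rps24 52 mice lie in the lower band and 17 in the upper.

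The mice at the low level were not the same from 1 microexon to the next. Each library was below the gap for 3 to 11 of the 18 (median 7 in HDID1 and 6.5 in HSNpt). Over the 153 pairs of microexons, the correlation across the 69 mice of being below the gap had a median of -0.00960 and ran from -0.334 to 0.247; for the 4 pairs within 20 Mb of each other it ran from -0.0560 to 0.113. The number of low microexons per library had a correlation of 0.0234 with log2 depth, -0.0588 with coverage balance and -0.0787 with the spiny neuron score, across the same libraries. Without the libraries that stood apart, 17 of the 18 kept a gap of at least 1. The exception was Amph, whose gap went from 1.01 to 0.333 log2 units.

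The line comparison asks whether the use of microexons differed between HDID1 and HSNpt. With edgeR's diffSpliceDGE, which tests each exon against the rest of its gene, 483 of the 1603 microexons passed the count filter, and 5 were called at an adjusted p under 0.05 (Benjamini-Hochberg over all exons). Over all exons tested, 0.509% were called. All 5 were lower in HDID1, as were 562 of the 616 exons called in all (0.464% of exons tested). The median log2 difference was -0.07 over the microexons and -0.06 over all exons. Without the libraries that stood apart these medians were -0.02 and -0.01, and with marker scores and coverage balance as covariates they were 0.08 and 0.07, on the other side of 0. Hypothalamic and choroid plexus markers had higher medians in HDID1, and the part of the choroid plexus markers, which were not among the covariates, was not tested. At an unadjusted p under 0.05 there were 34 microexons, beside 5.12% of all exons.

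The 21 nt exon of Gramd1b, a sterol transporter of the endoplasmic reticulum, made up 0% to 1.83% of its gene's counts in HDID1 (median 0.280%) and 0% to 1.80% in HSNpt (median 1.04%). The ranges overlapped, and 29 of 35 HDID1 mice lay below the HSNpt median. The fit gave a log2 difference of -0.83 (SE 0.15, adjusted p = 2.08e-05, edgeR). Its values too lay in bands, with a widest gap of 0.927 log2 units that put 26 HDID1 and 15 HSNpt mice on the lower side. The call was lost with DESeq2 (adjusted p = 0.157), which estimates the spread exon by exon, with voom (adjusted p = 0.0712) and against the nearest rows (-0.61, adjusted p = 0.663, limma). EdgeR kept the call without the libraries that stood apart (-1.0042, adjusted p = 1.065e-10). With marker scores and coverage balance as covariates, edgeR also kept it (-0.70, adjusted p = 0.00064).

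The 12 nt exon of Stx16, a syntaxin of the trans-Golgi network, held 0% to 2.99% of the gene's counts in HDID1 (median 0.508%) and 0% to 3.34% in HSNpt (median 2.05%). The ranges overlapped, with 27 of 35 HDID1 mice below the HSNpt median. The log2 difference was -0.69 (SE 0.15, adjusted p = 0.00179, edgeR). The call was lost with marker scores and coverage balance as covariates (-0.02, adjusted p = 0.993, edgeR) and with DESeq2 (-0.73, adjusted p = 0.302). It was kept without the libraries that stood apart (-0.58, adjusted p = 0.00629, edgeR) and with voom (-0.80, adjusted p = 0.0208).

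For the 25 nt exon of Dpy19l1, of a family of C-mannosyltransferases, the share was 0% to 0.975% in HDID1 (median 0.557%) and 0% to 1.72% in HSNpt (median 0.742%). The highest HSNpt mice lay above every HDID1 mouse, and 30 of 35 HDID1 mice were under the HSNpt median. The log2 difference was -0.71 (SE 0.15, adjusted p = 0.00117, edgeR), and DESeq2 gave an adjusted p of 0.00120. The call was lost with the covariates (-0.29, adjusted p = 0.501, edgeR) and with voom (-0.61, adjusted p = 0.141). It was kept without the libraries that stood apart (-0.62, adjusted p = 0.00508, edgeR).

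A row of 7 nt in Eif4a2, an RNA helicase of translation initiation, matched no GENCODE exon, and its neighbours averaged 3.85 counts. Its share was 0.447% to 2.79% in HDID1 (median 1.54%) and 0.584% to 2.86% in HSNpt (median 2.05%). The ranges overlapped, with 33 of 35 HDID1 mice below the HSNpt median. The log2 difference was -0.47 (SE 0.08, adjusted p = 0.0197, edgeR). The call was lost with covariates (-0.24, adjusted p = 0.146, edgeR) and with voom (-0.29, adjusted p = 0.255). It was kept without the libraries that stood apart (-0.34, adjusted p = 0.0481, edgeR) and with DESeq2 (-0.41, adjusted p = 0.00343).

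In Ap1s2, the sigma subunit of the AP-1 clathrin adaptor, the 9 nt exon held 0.145% to 1.75% of the counts in HDID1 (median 0.978%) and 0.379% to 6.14% in HSNpt (median 1.03%). The medians were close, and 3 HSNpt females lay above every other mouse. The log2 difference was -0.57 (SE 0.14, adjusted p = 0.0166, edgeR). The call was lost without the libraries that stood apart (-0.46, adjusted p = 0.132, edgeR), with covariates (-0.39, adjusted p = 0.225, edgeR), with voom (-0.27, adjusted p = 0.950), with DESeq2 (-0.52, adjusted p = 0.153) and against the nearest rows (-0.42, adjusted p = 0.605, limma).

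**Figure D5:**
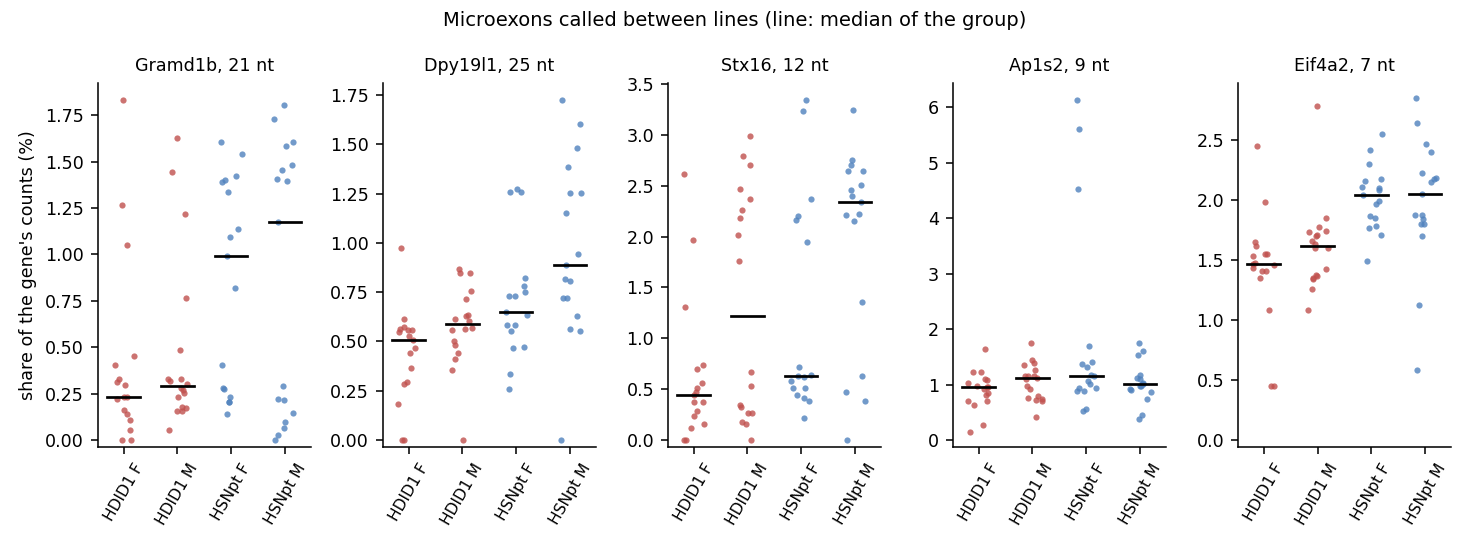
Share of each gene's counts that fell on the microexon (y axis, percent) for the 5 microexons called between lines, by line and sex (17 or 18 mice per group); each point is 1 mouse and the black line the group median. The groups overlap in every panel, and for Ap1s2 the HSNpt values above 4% are 3 females.

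None of the 5 host genes passed the test on gene counts (adjusted p from 0.0890 for Gramd1b to 0.983 for Stx16, edgeR's quasi-likelihood test). Over the 403 hosts of tested microexons that were in the gene fit, 49 were called (12.2%; 14 higher and 35 lower in HDID1), beside 11.7% of all 16867 genes.

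Set against the nearest rows only, with limma on the log2 ratio, 2 of 388 microexons were called, both higher in HDID1, beside 0.22% of 84844 exons tested (0.108% higher in HDID1). For the 18 nt exon of Atp2a2, the SERCA calcium pump, the ratio ran from 0.229 through 0.322 to 0.513 in HDID1 and from 0.248 through 0.285 to 0.364 in HSNpt. The ranges overlapped, 33 of the 35 HDID1 mice exceeded the median of HSNpt, and the log2 difference was 0.20 (SE 0.04, adjusted p = 0.00283, limma). Set against all exons of the gene it pointed the other way (-0.14, adjusted p = 1.00, edgeR). For the 24 nt exon of Tac1 the ratio ran from 1.15 through 1.37 to 1.5 in HDID1 and from 1.12 through 1.28 to 1.42 in HSNpt. In HDID1, 31 of 35 mice exceeded the median of HSNpt, and the log2 difference was 0.11 (SE 0.02, adjusted p = 0.00222, limma). Both were called without the libraries that stood apart (0.19 and 0.11).

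The share of gene counts was tested singly, by 100000 two-sided permutations of the line labels. Results are given for the 31 tested microexons that were named for their ratio, their spread or a known gene. Some of these were also picked by a line difference. Tac1 was called between lines against its nearest rows, and Eif4g1 was also named from a role list by its line p. Without adjustment 8 had a p under 0.05, 4 higher and 4 lower in HDID1: Tac1, Dmtn, 2010107E04Rik and the 12 nt exon of L1cam were higher, and Sepw1, Spock2, Eif4g1 and the 15 nt exon of L1cam lower. The permutation test was not run over all exons. No share over all exons can therefore be set beside the 8, and they cannot be read as a result about microexons. For Sepw1, the share had a median of 8.75% in HDID1 (6.31% to 9.48%) and 9.36% in HSNpt (7.74% to 10.3%). The ranges overlapped, with 33 of 35 HDID1 mice below the HSNpt median (unadjusted p = 1e-05, permutation test, the smallest these resamples can give). For Dmtn the median was 3.48% in HDID1 (2.96% to 3.86%) and 3.197% in HSNpt (2.91% to 3.78%), and 30 of 35 HDID1 mice exceeded that median (unadjusted p = 0.00011, permutation test). None of the 8 was called by edgeR's test of exon usage with all libraries; Sepw1 and Dmtn were called by DESeq2 and Spock2 by voom.

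By the role of the host, 1 microexon was called by edgeR, that of Ap1s2 among 26 tested in vesicle traffic genes, of which 2 had an unadjusted p under 0.05. Over all exons 0.509% were called and 5.12% had an unadjusted p under 0.05. In the other lists edgeR called 0, and voom and DESeq2 called 0 in every list. With covariates, where 0.858% of all exons were called, edgeR called 1 in the adhesion list (Nrxn2, -0.65), 2 in the vesicle list (Sgip1, -0.55, and Picalm, -0.48), 2 in the cytoskeletal list (Clasp2, 0.49, and Kif21a, 0.57) and 1 in the signalling list (Arhgap21, 0.60). Of 25 tested in adhesion and guidance genes, 5 had an unadjusted p under 0.05; their median log2 difference was -0.11, and the smallest p belonged to Nrxn2 (27 nt, -0.48, SE 0.15), Ptprf (27 nt, -0.49, SE 0.15), Tenm3 (21 nt, -0.71, SE 0.25) and Nrxn3 (18 nt, -0.58, SE 0.23), with adjusted p from 0.135 to 0.621 by edgeR. Of 32 in cytoskeletal genes 2 had an unadjusted p under 0.05 (median -0.08), with Clasp2 (3 nt, 0.38), Myo5a (9 nt, -0.39), Kif1a (27 nt, -0.27) and Myo6 (27 nt, -0.18) at the smallest p. Among 13 of channels and receptors none had (median -0.06; Cacnb1 -0.17, Cacnb4 -0.18, Cacna2d1 -0.15 and Slc8a1 0.19), nor among 7 of transcription and chromatin genes (median -0.07; Kdm1a -0.07, Mef2c -0.18, Mef2d -0.07 and Mef2a -0.22) or 2 of translation genes (Eif4g1 -0.23 and Eif4g3 -0.01). Among 11 of signalling genes 1 had (median -0.03), the 18 nt row of Mapk8ip3, which matches no GENCODE exon (0.43, SE 0.09, adjusted p = 0.0526 by edgeR), ahead of Src (-0.17), Apbb2 (0.31) and Arhgap44 (-0.16). Sgip1 (-0.46), Asap2 (0.35) and Trappc9 (-0.24) followed Ap1s2 in the vesicle list. These are log2 differences of exon usage, HDID1 minus HSNpt.

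Within the sexes, 7 microexons were called between lines in females and 0 in males by edgeR, beside 0.398% and 0.12% of all exons. Over all exons 482 were called in females and 145 in males; without the libraries that stood apart these were 146 and 318, and with covariates 239 and 639, so the larger number moved to the males. The microexons called were then 5 in females and 3 in males without those libraries, and 3 and 11 with covariates. Those of females in the fit with all libraries were lower in HDID1 for 5 and higher for 2. In males 19 had an unadjusted p under 0.05 (1.47% of all exons had), voom called 1 (0.162% of all exons) and DESeq2 called 0 (0.335%). The median log2 line difference in females was -0.14 over all exons and -0.15 over the microexons, and the median difference between the sexes (males minus females) was 0.13 over all exons. Without the libraries that stood apart the female medians were -0.02 and -0.03 and that of the difference between the sexes 0.00; with covariates the female medians were 0.05 and 0.06. The difference between the sexes itself was called for Ap1s2 alone (1 of 483 microexons, beside 0.0537% of all exons; 31 microexons had an unadjusted p under 0.05, beside 3.36% of all exons). Its ratio to the neighbours had a median of 0.0306 in HDID1 females, 0.0348 in HDID1 males, 0.0356 in HSNpt females and 0.0347 in HSNpt males. The medians did not set the groups apart; 3 HSNpt females, at 0.150 to 0.224, lay above the highest HDID1 mouse (0.0564). The line difference was -1.23 in females and 0.08 in males on the log2 scale, and their difference 1.31 (SE 0.28, adjusted p = 0.0159, edgeR).

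Between sexes, 1 microexon was called, beside 0.0413% of all exons. The Stx16 exon had a median share of 2.18% in males and 0.537% in females, with 24 of the 35 males above the female median. Both sexes were spread over the whole range, and the log2 difference was 0.81 (SE 0.15, adjusted p = 0.000726, edgeR; DESeq2 gave 1).

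The blood ethanol reading taken at the end of the test ran from 0 to 2.81 in HDID1 (median 1.498) and from 0 to 1.701 in HSNpt (median 0.256), in a unit not stated in the sources used here. With line and sex in the fit, 0 of 483 microexons were called by edgeR, beside 0.00578% of all exons; 20 had an unadjusted p under 0.05, beside 0.497% of all exons, and voom called 0. The smallest p was that of Gramd1b, with a slope of 0.54 log2 units per unit of the reading (SE 0.12, adjusted p = 0.0938, edgeR). Within HDID1 alone it passed (0.88, SE 0.17, adjusted p = 0.0122, edgeR), and so did the 18 nt exon of Nckap1, a WAVE complex subunit, within HSNpt (-0.81, SE 0.13, adjusted p = 4.43e-05, edgeR). Each was 1 call among 424 microexons tested, beside 2 of 113161 exons within HDID1 and 37 of 114022 within HSNpt. The reading was 0 in 16 of 34 HSNpt mice and in 1 of 35 HDID1 mice, which limits the slope within HSNpt.

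All 22 regulators of microexons on the list were measured as genes. By edgeR's quasi-likelihood test 1 was higher and 4 were lower in HDID1, beside 11.7% of all genes called; their median log2 difference was -0.07, against 0.01 over all genes. Mbnl2, a muscleblind splicing factor, ran from 121 through 216 to 290 CPM in HDID1 and from 178 through 269 to 355 CPM in HSNpt, and 4 of 35 HDID1 mice exceeded the HSNpt median (log2 difference -0.26, SE 0.06, adjusted p = 0.0025). Rbfox1 ran from 164 through 323 to 474 CPM in HDID1 and from 223 through 387 to 579 CPM in HSNpt (-0.32, SE 0.09, adjusted p = 0.0182). Mbnl1 (-0.15, adjusted p = 0.0284) and Rbfox3 (-0.24, adjusted p = 0.0454) were also lower, and Nova1 was higher (0.18, adjusted p = 0.0280). All groups overlapped. Without the libraries that stood apart, Mbnl2 was called (-0.22, adjusted p = 0.00731), while Rbfox1, Mbnl1, Rbfox3 and Nova1 had adjusted p of 0.0760, 0.0655, 0.165 and 0.146 by the same edgeR test. Srrm4, Srrm3, Srsf11, Rnps1 and the 3 PTB genes were not called, but without the libraries that stood apart Rnps1 was (0.10, adjusted p = 0.0225, edgeR).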

How the data were processed

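The authors deposited whole-number counts per exon and per gene, 1 column per mouse, not normalized; the build was mm10, and STAR, bedtools, edgeR, FastQC and CASAVA are named, per the submitters' processing notes. Neither versions nor the use of strand in counting is given in the sources used here. Exon counts of 42252 genes summed to the gene counts in every library. Totals were 14077983 to 35257422 counts, and intervals from counts would cover counting error only. The members, lists and rules for named microexons were chosen with earlier results of these data known.

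Exon usage was tested with edgeR 4.0.16 (diffSpliceDGE, TMM, filterByExpr, R 4.3.3) on 4 group means (line by sex), which takes 1 spread per gene. The ratio to the nearest rows was tested with limma 3.58.1 on log2 ratios with a pseudocount of 0.5, and genes with edgeR's quasi-likelihood test. P-values were adjusted by Benjamini-Hochberg over every exon or gene tested. Shares were compared by two-sided permutation (100000 resamples). They are reported without adjustment, and only for microexons named for their ratio, their spread or a known gene. Alternatives were DESeq2 1.42.0, voom, other scaling, no filter, covariates (scores of spiny neuron, oligodendrocyte and hypothalamic markers, and coverage balance) and leaving out 7 libraries. Scripts were tested on simulated data. For exon usage, 10 of 50 exons changed 1.25-fold and 47 of 50 changed 1.5-fold were recovered. Of the 121133 exons, 54 unchanged ones were called, and those in genes with a changed exon were not counted apart. Named were all microexons called, those with extreme ratios or spread, those of 18 known genes (1 of which is not reported here), and up to 4 per list by smallest p. Each library came from a separate mouse. Replicate numbers follow sample order and pair nothing.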

Additional observations from a re-analysis of the deposited data

Results flagged for a closer look

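The line difference of the 9 nt exon of Ap1s2 differed between the sexes by 1.31 on the log2 scale (males minus females), past the threshold in a test of that difference itself. Without the libraries that stood apart it was 0.96 and not called (adjusted p = 0.676, edgeR). In 3 HSNpt females the ratios of this exon to the neighbouring rows were 0.150 to 0.224, and the part of these mice in the result was not tested.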

How the results depend on the processing

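Against 5 microexons called between lines, there were 6 calls with DESeq2's size factors, 7 without a filter, 7 without the 7 libraries apart, 5 with DESeq2, 2 with voom, 2 with the nearest rows as reference and 10 with covariates. In the same order, microexons tested were 483, 1311, 494, 482, 483, 388 and 483. Over all exons the first 4 settings called 584 of 121133, 746 of 211879, 577 of 121734 and 1713 of 121087. The last 3 called 540 of 121133, 187 of 84844 and 1039 of 121133, beside 616 of 121133 in the main fit. Of edgeR's calls, DESeq2 shares Dpy19l1 and Eif4a2, voom shares Stx16, the nearest rows share none, and the covariate fit's 10 (5 higher and 5 lower in HDID1) share Gramd1b; over all exons the covariates gave 651 higher and 388 lower calls, against 54 and 562 without them. In females the 7 calls became 0 with voom, 3 with covariates, 1 with DESeq2 and 0 with nearest rows. Over all exons the 482 calls in females became 168, 239, 329 and 43 in the same order. In males the 0 calls became 1 without a filter, 1 with voom, 3 without the libraries apart and 11 with covariates. Over all exons the 145 calls in males became 228, 196, 318 and 639 in the same order. The single interaction call was Lphn3 rather than Ap1s2 without a filter or the libraries apart, and became 0 with voom, covariates, DESeq2 and nearest rows. Over all exons the 65 interaction calls became 39, 51, 12, 59, 0 and 0 in the same order. The single sex call became 0 with voom, DESeq2 and nearest rows, 2 without the libraries apart and 3 with covariates. Over all exons the 50 sex calls became 67, 106, 32, 147 and 126 in the same order. For blood ethanol, 0 calls became 1 without the libraries apart, 1 within HDID1 and 1 within HSNpt. Over all exons the 7 calls became 12, 2 and 37 in the same order. Regulator calls went from 5 to 3 without a filter and 2 without the libraries apart. The causes were not tested.

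The difference of Atp2a2 against its nearest rows (0.20) reversed against all exons of the gene, at -0.14 with edgeR, -0.11 with voom and -0.16 with DESeq2, but was 0.15 with edgeR and covariates (adjusted p = 0.409), settings chosen after seeing the data. For the microexons with 2 levels, the other settings were also chosen after seeing the data. A gap of 1.5 left 9 of 272 (3.31%), beside 0.0706% of internal exons of 28 to 300 nt. A gap of 0.8 gave 26 of 272 (9.56%), beside 0.417%. With at least 50 counts there were 11 of 116 (9.48%), beside 0.234%. Leaving out the libraries apart gave 23, and no share of longer exons is given for that setting. A limit of 15 nt kept 421 microexons, and a clearance of 50 bp kept 1554. Over 77 repeats for single microexons and regulators, 41 kept direction and call, 33 kept direction but lost the call and 3 reversed.

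No paired analysis was possible because the replicate numbers only name the mice. Low counts limit the tests: 1120 of 1603 microexons were not tested. The usage test pools the spread over the exons of a gene, while the log2 ratio of Gramd1b had an SD of 1.28 across mice against a median of 0.255 over measured microexons.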

Other observations

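The 15 nt exon of Lphn3, a latrophilin adhesion receptor, had a line difference that differed between the sexes in the fit without the libraries that stood apart (-1.85, SE 0.42, males minus females, adjusted p = 0.0258, edgeR) and was also called without a filter. Over all mice its ratio to the neighbouring rows ran from 0 through a median of 0.0485 to 0.349. The Nckap1 exon that followed blood ethanol within HSNpt had ratios from 0.0464 through 0.472 to 0.906 over all 69 mice.

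Across mice, the SD of the log2 ratio within groups had a median of 0.255 over the 272 measured microexons and 0.229 over internal exons of 28 to 300 nt.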
